A study of Mus musculus with 40 samples.

Results

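Liver RNA counts of 10 genes that encode acyltransferases and phosphatases of triglyceride synthesis were examined: the monoacylglycerol acyltransferases Mogat1 and Mogat2, the diacylglycerol acyltransferases Dgat1 and Dgat2, the glycerol-3-phosphate acyltransferase Gpam, the acylglycerol-phosphate acyltransferases Agpat2 and Agpat3, and the lipins Lpin1, Lpin2 and Lpin3. They were chosen by symbol from the 40594 genes that the count tables share, and 9 of the 10 passed the filter on low counts among 12942 genes tested. Mogat2 did not pass. The livers came from 40 male mice, 5 months old, in 8 groups of 5, and the labels give C57BL6/J as the strain of all of them. Wildtype (WT) mice and mice whose Pparg gene was deleted in the liver (KO) each received control diet, the same diet with pioglitazone (Pio), a high-fat diet (HFD) or the high-fat diet together with the drug (HFD-Pio). The drug is a thiazolidinedione that activates PPARγ, and the study asked which of its effects on liver RNA need PPARγ in hepatocytes and whether diet changes them. The KO mice were bred from mice with loxP-flanked Pparg and mice with Cre recombinase under the albumin promoter, which acts in hepatocytes, so that the other cells of the KO liver kept the gene. The WT mice were not described as floxed littermates. Libraries were made from poly-A RNA of each liver, with 1 library per mouse.

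Liver makes triglyceride by 2 routes. In the glycerol-3-phosphate route an acyl chain is first added by a GPAT enzyme (Gpam encodes the mitochondrial GPAT), another by an AGPAT enzyme, the lipins then remove the phosphate to give diacylglycerol, and a DGAT enzyme adds the last chain. In the monoacylglycerol route, which is best known from the intestine, an MGAT enzyme (Mogat1 or Mogat2) makes diacylglycerol directly from monoacylglycerol. Dgat1 and Dgat2 belong to unrelated protein families, and Mogat1 and Mogat2 are relatives of Dgat2. Lpin1 also acts in the nucleus as a partner of transcription factors, and its transcript is known to respond to fasting.

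The promoter of Mogat1 is shown because this was the gene that rose with Pio, and that of Gpam because its values came closest to the threshold among the others. PPARγ binds DNA with RXR at pairs of the hexamer AGGTCA spaced by 1 base, and the capitals mark the run of each window that best matches such a pair, on either strand. The windows hold 250 bases before and 50 bases after the RefSeq start and are written in the direction of the gene (RefSeq, GRCm38.p6). Mogat1 lies on the + strand and its window is chr1:78510810-78511109, and Gpam lies on the - strand and its first window is chr19:55127189-55127488.
Mogat1: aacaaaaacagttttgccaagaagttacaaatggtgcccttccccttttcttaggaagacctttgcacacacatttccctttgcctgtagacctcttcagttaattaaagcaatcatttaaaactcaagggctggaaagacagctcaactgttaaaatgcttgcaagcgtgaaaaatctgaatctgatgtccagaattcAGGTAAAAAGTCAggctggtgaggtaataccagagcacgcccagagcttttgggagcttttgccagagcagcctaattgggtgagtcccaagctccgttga
Gpam: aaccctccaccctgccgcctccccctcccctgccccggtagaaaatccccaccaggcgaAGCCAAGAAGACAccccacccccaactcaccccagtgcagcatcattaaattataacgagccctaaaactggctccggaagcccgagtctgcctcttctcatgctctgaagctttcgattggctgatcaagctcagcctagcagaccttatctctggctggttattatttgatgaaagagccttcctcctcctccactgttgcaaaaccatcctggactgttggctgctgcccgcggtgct
The run in the Mogat1 window matched the pair in 10 of 12 bases and lay from -51 to -39 relative to the RefSeq start. GENCODE M21 starts Mogat1 69 bases further upstream, so that the run lies inside the gene as GENCODE draws it. Of all 32851 promoter windows of this length, 3.86% held a match at least as good. The run in the Gpam window matched in 7 of 12 bases, which 99.9% of all windows reached. Windows were given for 7 of the 10 genes, 11 in all, and the other 9 windows matched in 7 to 9 bases. A match of 9 bases, the best in Agpat2, Lpin1 and Lpin3, occurred in 24.6% of all windows. No window is shown for Mogat2, Dgat1 or Dgat2. These matches describe letters only.

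Total counts per mouse ran from 15789401 to 49860981 in WT (median 23084681) and from 21542958 to 28334251 in KO livers (median 24703923). Values below are CPM, that is counts scaled to the TMM-normalized library size, as mean ± SD of 5 mice unless stated otherwise. A gene was called when its adjusted p in edgeR's quasi-likelihood test was at most 0.05, with Benjamini-Hochberg adjustment over all tested genes. Because each genotype has its own count table, a difference in level between WT and KO cannot be told apart from a difference between the tables and was not tested. KO Pio mouse 13 stood apart: over all tested genes its log2 CPM had a median r of 0.788 with its group mates, against 0.935 to 0.990 for the other 39 mice. It enters the estimate of spread for every comparison, and leaving it out raised the number of all genes called in WT Pio against control from 506 to 2011. In bulk liver RNA, fewer cells of a type and less RNA per cell cannot be told apart. The hepatocyte genes Alb, Ttr, Apoa1, Apob, Cps1 and Hnf4a summed to 70968 to 144413 CPM in 39 mice and to 34073 CPM in KO Pio mouse 13.

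Pparg, the targeted gene, had WT averages of 8.59 ± 2.05 CPM (control), 12.4 ± 1.24 (Pio), 11.3 ± 1.44 (HFD) and 10.4 ± 1.92 (HFD-Pio). In KO mice it averaged 7.36 ± 2.44 on control diet, 4.60 ± 1.28 with Pio, 6.29 ± 1.97 on HFD and 7.27 ± 1.79 with HFD-Pio. Reads in KO livers can stem from the exons that remain and from cells other than hepatocytes, so the gene total does not measure the deletion. The log2 fold change of Pparg with Pio on control diet differed between the genotypes by -1.21 (KO minus WT, standard error 0.32, adjusted p = 0.0219, edgeR).

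Per kb of exon, the transcripts of the 10 genes covered a wide range. Over the 20 WT mice the median level was highest for Dgat2 with 214 CPM per kb, followed by Agpat2 (189), Lpin1 (81.3), Agpat3 (43.4), Gpam (42.4), Lpin2 (33.0), Dgat1 (7.23), Lpin3 (1.75), Mogat1 (1.43) and Mogat2 (0.0881). Over the 20 KO mice it was 178 CPM per kb for Dgat2, 92.6 for Agpat2, 72.7 for Lpin1, 40.9 for Lpin2, 37.7 for Gpam, 37.4 for Agpat3, 5.94 for Dgat1, 1.72 for Lpin3, 0.105 for Mogat1 and 0.0875 for Mogat2. Dgat2 made up the bulk of the summed DGAT level per kb in every group, from 95.6% ± 1.67 in WT control to 97.2% ± 0.937 in WT HFD mice. Of the summed level of Lpin1, Lpin2 and Lpin3 per kb, Lpin1 held between 57.9% ± 9.95 (KO Pio) and 73.0% ± 5.53 (WT Pio). Without mouse 13, whose share was 43.1%, KO Pio mice had 61.6% ± 6.39 and the lowest group was WT HFD-Pio at 60.0% ± 4.93. The summed MGAT level was below that of every other step: it was 0.613 ± 0.347 CPM per kb in WT control and 3.22 ± 1.41 in WT HFD-Pio mice, where the DGAT sum was 259 ± 28.8.

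**Figure D1:**
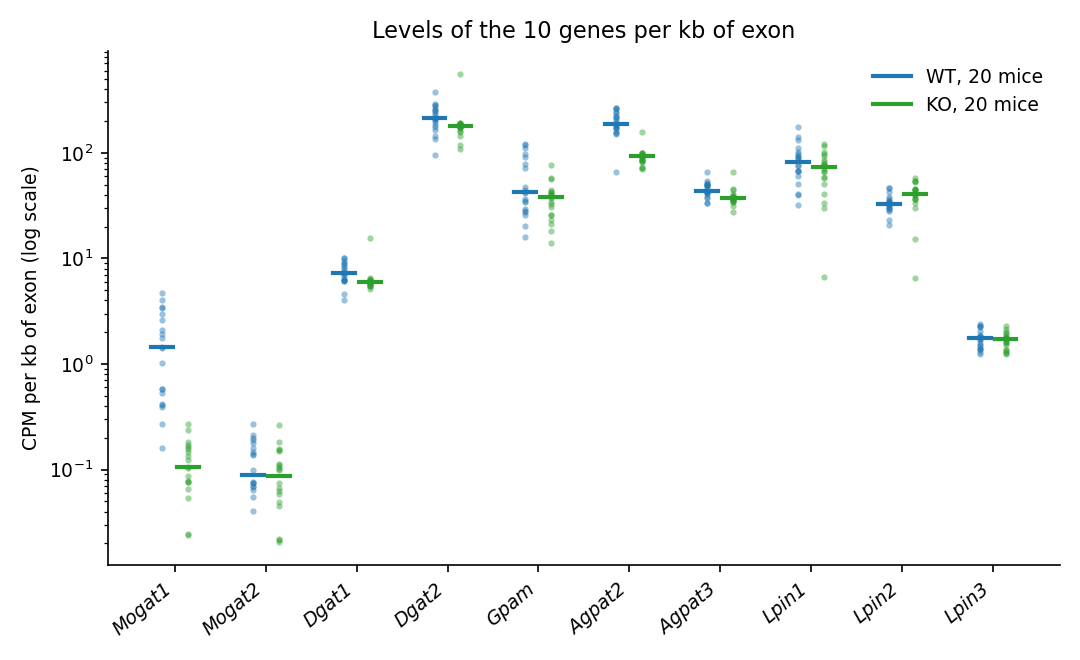
Level of each of the 10 genes in CPM per kb of exon (log axis) in 20 WT (blue) and 20 KO mice (green), with 1 point per mouse and a bar at the median; values of 0 (1 KO mouse for Mogat1 and 3 mice for Mogat2) cannot be drawn on this axis. Dgat2 (WT median 214) stands highest and Mogat2 (0.0881) lowest, and the 20 WT values of Mogat1 spread from 0.249 to 7.39 CPM before division by length.

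Mogat1 (ENSMUSG00000012187, chromosome 1, 78510991 to 78538173, + strand) was higher in WT mice with Pio on both diets. The 5 WT control mice had 0.249, 0.423, 0.656, 0.894 and 1.58 CPM, and the 5 WT Pio mice 2.75, 3.24, 4.08, 4.64 and 5.27 CPM. The groups did not overlap, and the means differed 5.25-fold (0.761 ± 0.519 against 4.00 ± 1.02). The log2 fold change was 2.37 (standard error 0.45, adjusted p = 0.00142, edgeR), in a comparison where 3.91% of all tested genes were called. It stayed called without any 1 of the 40 mice (2.13 to 2.84).

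On HFD the 5 WT mice without Pio had 0.611, 0.642, 0.831, 0.900 and 2.28 CPM of Mogat1, and those with Pio had 2.19, 2.99, 5.38, 6.32 and 7.39 CPM. The highest WT HFD mouse, number 829, lay just above the lowest WT HFD-Pio mouse, number 840, and the remaining 4 animals given both exceeded all those on HFD alone. The means differed 4.61-fold (1.05 ± 0.696 against 4.85 ± 2.20), and the log2 fold change came to 2.20 (with a standard error of 0.45, adjusted p = 0.00752, edgeR), where 1.08% of all tested genes were called. Without any 1 of the 40 mice it ranged from 2.01 to 2.70 and stayed called.

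Diet by itself was not followed by a called difference in Mogat1. The log2 fold change of WT HFD against control was 0.46 (standard error 0.46, adjusted p = 0.740) and became -0.043 without WT HFD mouse 829. That of WT HFD-Pio against Pio was 0.29 (standard error 0.41, adjusted p = 0.814). The Pio effects on the 2 diets differed by -0.17 (HFD minus control diet, standard error 0.61, adjusted p = 0.951, edgeR).

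In KO mice Mogat1 was near the limit of detection. Its counts lay between 0 and 11 per library, 90 in all over the 20 mice, against 7 to 313 in WT libraries. KO control mice had 0.0843 to 0.419 CPM, KO Pio mice 0 to 0.266, KO HFD mice 0.118 to 0.370 and KO HFD-Pio mice 0.0382 to 0.283, and these ranges overlapped throughout. The log2 fold change with Pio was -0.69 on control diet (standard error 0.65, adjusted p = 0.493, and -0.45 without mouse 13) and -0.48 on HFD (standard error 0.62, adjusted p = 1.00). The difference between the genotypes in the Pio effect on control diet was itself tested and was -3.06 (KO minus WT, standard error 0.79, adjusted p = 0.0174, edgeR), where 7.87% of all tested genes were called. Without KO control mouse 2, which had the highest Mogat1 value of the KO mice, it was -2.62 and lost the call (adjusted p = 0.0569), and without KO Pio mouse 13 it was -2.83 and kept it (adjusted p = 0.0329). On HFD the same difference was -2.67 (standard error 0.77, adjusted p = 0.371), where 0.0927% of all tested genes were called. It was called by limma with sample weights (-3.43, adjusted p = 0.0155), which called 2.74% of all tested genes there.

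**Figure D2:**
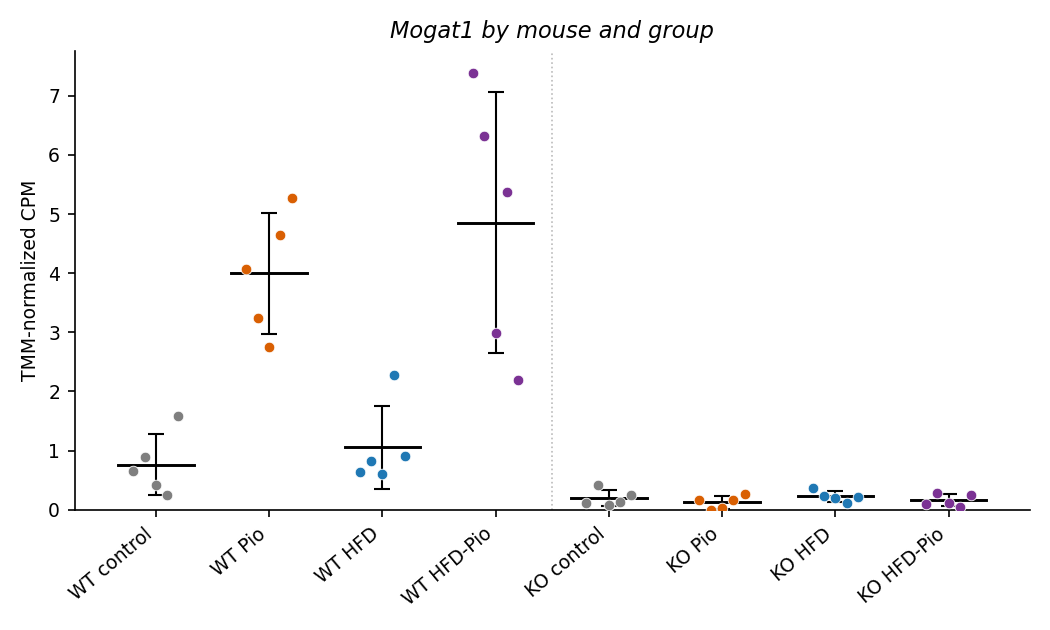
Mogat1 in CPM for each of the 40 mice, by group (5 points each, with mean and SD as bar and whiskers). The 10 WT mice with Pio lie between 2.19 and 7.39, WT mice without Pio between 0.249 and 2.28, and all 20 KO mice between 0 and 0.419.

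Mogat1 reached 1 CPM in 12 of the 40 mice, of which 10 were the WT mice with Pio, so that it passed the filter on low counts only through the groups where it was high. It was called in the same 2 comparisons when no filter was used. GENCODE places the gene BC035947 over Mogat1 on the - strand, and the sources used here do not say whether reads were counted by strand. The WT averages of BC035947 were 0.0769 ± 0.0896 CPM (control), 0.885 ± 0.575 (Pio), 0.0881 ± 0.0247 (HFD) and 0.567 ± 0.300 (HFD-Pio), and it had at most 0.0718 CPM in any KO mouse. If strand was not used, reads on exons of both genes were left out, because only reads assigned to 1 gene were counted. How far this changed the Mogat1 counts was not tested. The paper also measured Mogat1 by RT-qPCR and describes the RT-qPCR results of its exemplar genes as highly concordant with its RNA-Seq. Of 6 adipocyte markers, 2 passed the filter and 1 of these, Retn (resistin), was called with Pio in WT mice, by 5.98 on the log2 scale on control diet (adjusted p = 1.91e-06) and 3.73 on HFD (adjusted p = 0.00637, edgeR). In these comparisons 3.91% and 1.08% of all tested genes were called. Adrb3, the other marker tested, changed by 0.21 and -0.15 there and was not called. Retn averaged 0.0449 CPM in WT control and 3.10 in WT Pio mice. The markers Adipoq, Lep and Plin1 were at most 0.152 CPM in every WT mouse, and these and Adig did not pass the filter. The 6 markers summed to 8.98 to 20.2 CPM (WT control), 8.65 to 29.2 (Pio), 13.5 to 24.9 (HFD) and 13.1 to 31.2 (HFD-Pio), most of it Adrb3, and their part in the result was not tested.

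Mogat2 (ENSMUSG00000052396, chromosome 7, 99219084 to 99238619), the MGAT of the intestine, had 0 to 14 counts per library, with 3 mice at 0, and stayed below 0.5 CPM in all mice (highest 0.499). In WT mice it averaged 0.228 ± 0.118 CPM on control diet, 0.332 ± 0.122 with Pio, 0.0715 ± 0.0665 on HFD and 0.200 ± 0.0989 with HFD-Pio. Over the 8 comparisons of 2 groups the exact two-sided permutation test of 5 mice against 5, whose smallest possible p is 0.00794, gave p-values from 0.0317 (WT HFD-Pio against HFD) to 1.00, without correction for the 8 tests. Counts this low limit what can be detected. Of 5 enterocyte markers Sis was at 0 in all WT mice and Lct and Cdx2 were at most 0.0917 CPM. The 5 summed to 22.5 to 51.8 CPM (WT control), 36.6 to 67.7 (Pio), 24.5 to 48.9 (HFD) and 40.8 to 100.1 (HFD-Pio), most of it Fabp2, and their part was not tested.

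Gpam (ENSMUSG00000024978, chromosome 19, 55067268 to 55127238, - strand) had its highest level in WT Pio mice. The WT control mice had 183, 235, 279, 296 and 609 CPM, and the WT Pio mice 519, 646, 738, 784 and 813 CPM. WT control mouse 833, at 609 CPM, was the only control above the lowest Pio mouse. The means were 320.4 ± 167 and 700.2 ± 119 CPM (2.19-fold), and the log2 fold change of 1.13 (standard error 0.34) just missed the threshold in edgeR (adjusted p = 0.0503). It was 1.14 with RLE size factors in place of TMM (adjusted p = 0.0458), 1.14 in DESeq2 (0.0164), 1.15 in limma with sample weights (0.00639) and 1.13 when WT mice were fitted alone (0.0250). Without mouse 833 it was 1.50 (adjusted p = 0.0122, edgeR), without KO Pio mouse 13 it was 1.14 (adjusted p = 0.00843), and it passed the threshold as well without any 1 of WT HFD mice 827 and 829, WT HFD-Pio mice 837 and 840, KO control mice 2 and 5, KO HFD mouse 9 and KO Pio mouse 11. Without filter the adjusted p was 0.0747, and over all single omissions it lay between 0.00843 and 0.122. Of all tested genes, the main fit called 3.91% in this comparison, DESeq2 6.28% and limma with sample weights 23.9%. Without KO Pio mouse 13 edgeR called 15.5%.

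With HFD the Gpam level was lower in both drug states, without a call in edgeR. WT HFD mice had 105, 135, 189, 194 and 242 CPM, and WT HFD-Pio mice 173, 228, 286, 317 and 480.3 CPM. All 5 WT HFD-Pio mice lay below all 5 WT Pio mice (log2 fold change -1.24, standard error 0.34, adjusted p = 0.0544), in a comparison where 1.22% of all tested genes were called. DESeq2 (adjusted p = 0.0137), limma with sample weights (0.00170) and the fit of WT mice alone (0.0370) called this difference, and so did edgeR without any 1 of 7 mice (WT control 832 and 833, WT HFD-Pio 837, WT Pio 841, KO HFD 9, KO Pio 11 and 13). Of all tested genes, DESeq2 called 2.94% there, limma 22.7% and edgeR 8.68% without KO Pio mouse 13. WT HFD against control gave -0.89 (standard error 0.34, adjusted p = 0.198) where 1.31% of all tested genes were called, and Pio on HFD gave 0.78 (standard error 0.34, adjusted p = 0.249). The order of the WT means was Pio, control, HFD-Pio and HFD, in which control and HFD-Pio (297 ± 116) differed by less than their spread.

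The share of Gpam in the summed GPAT level per kb was 70.4% ± 7.64 in WT Pio, 56.1% ± 12.7 in WT control, 46.7% ± 9.05 in WT HFD-Pio and 42.4% ± 10.1 in WT HFD mice. Gpat4 held most of the rest (27.5% ± 7.45 in WT Pio and 53.4% ± 8.92 in WT HFD mice). In KO mice Gpam ranged from 139.9 to 382 CPM on control diet, 92.7 to 509 with Pio (from 250.3 without mouse 13), 120.4 to 267 on HFD and 219 to 286 with HFD-Pio, and all 4 groups overlapped. The genotypes differed in the Pio effect by -0.73 on control diet (standard error 0.47, adjusted p = 0.319, edgeR) and by -0.49 without mouse 13 (adjusted p = 0.568), and neither was called. Clock genes moved in the same comparison as Gpam: 5 of 10 listed clock genes were called in WT Pio against control, where 3.91% of all tested genes were (Nr1d2, Per3 and Ciart higher, Arntl and Cry1 lower), and the list summed to 277 to 587 CPM in WT control and 626 to 963 CPM in WT Pio mice. Of 4 fasting genes (Pck1, G6pc, Ppargc1a and Igfbp1) edgeR called 0, and 4 had an unadjusted p under 0.05, as had 17.9% of all tested genes. Ppargc1a was higher with Pio (log2 fold change 0.66) and the others were lower, down to -1.54 for Igfbp1. The 4 genes summed to 2350 to 4540 CPM in WT control and 1114 to 3360 CPM in WT Pio mice. Their part in the result was not tested.

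The AGPAT genes showed no called difference in any comparison. Agpat2 (ENSMUSG00000026922, chromosome 2, 26593057 to 26604417), whose loss causes lipodystrophy in humans, had 141, 339, 369, 373 and 512 CPM in WT control mice and 405, 453, 467, 470.0 and 519 CPM in WT Pio mice. The groups overlapped, with WT control mouse 832 far below the rest, and the log2 fold change was 0.42 (standard error 0.21, adjusted p = 0.301, edgeR). The means on HFD were 409 ± 89.4 CPM without and 447 ± 109.9 with Pio. KO means lay between 182 ± 18.2 (HFD-Pio) and 219 ± 69.8 CPM (Pio), and without mouse 13 the Pio mean was 189.7 ± 27.8 CPM, below that of KO HFD mice (198 ± 14.4). Agpat2 held 69.7% ± 9.62 to 76.8% ± 1.31 of the summed AGPAT level per kb in the WT groups. GENCODE places Egfl7, an endothelial gene of at most 52.8 CPM here, over Agpat2 on the other strand.

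Agpat3 (ENSMUSG00000001211, chromosome 10, 78269178 to 78352489) had WT averages of 338 ± 32.4 CPM (control), 313 ± 38.1 (Pio), 383 ± 93.4 (HFD) and 378 ± 26.5 (HFD-Pio). With both HFD and Pio, 4 of 5 mice exceeded every WT Pio mouse. The log2 fold change of that comparison was 0.27 (standard error 0.15, adjusted p = 0.448) in edgeR and 0.30 in limma with sample weights (adjusted p = 0.00986). Limma called 22.7% of all tested genes there. KO means ran from 269 ± 15.7 (HFD-Pio) to 332 ± 102 CPM (Pio). Without mouse 13 the Pio mean was 286 ± 16.4 CPM, and KO control mice (319 ± 32.6) were highest.

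Lpin1 (ENSMUSG00000020593, chromosome 12, 16535669 to 16610966) had the highest level of the lipins. WT control mice had 307, 834, 989, 1356 and 1702 CPM, WT Pio mice 884, 897, 939, 1074 and 1271, WT HFD mice 588, 655, 725, 737 and 863, and WT HFD-Pio mice 383, 391, 493, 643 and 652 CPM. The control group spanned both ends of the range, and all WT HFD-Pio mice lay below all WT Pio mice. The log2 fold change between these 2 groups was -0.98 (standard error 0.41, adjusted p = 0.247) in edgeR. It was -0.99 both in limma with sample weights (adjusted p = 0.0206) and in edgeR without KO Pio mouse 13 (adjusted p = 0.0425), which is in neither group but enters the shared estimate of spread. Of all tested genes, limma called 22.7% in that comparison and edgeR without this mouse 8.68%. On HFD, Pio gave -0.48 (standard error 0.41, adjusted p = 0.611), with 3 mice of the drug group below the whole HFD group. In KO mice Lpin1 averaged 680.4 ± 172 CPM on control diet, 622 ± 388 with Pio (762 ± 268 without mouse 13), 599.8 ± 247 on HFD and 810.2 ± 302 with HFD-Pio.

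Lpin2 (ENSMUSG00000024052, chromosome 17, 71182560 to 71249817), a lipin known from liver, averaged 439.8 ± 112, 445 ± 81.4, 352 ± 56.5 and 401 ± 31.1 CPM in WT control, Pio, HFD and HFD-Pio mice, with overlap in every comparison. The share of Lpin1 in the lipin sum per kb was 60.0% ± 4.93 in WT HFD-Pio and 73.0% ± 5.53 in WT Pio mice. Lpin3 (ENSMUSG00000027412, chromosome 2, 160880670 to 160906002) stayed between 4.63 and 8.83 CPM in all 40 mice. Its log2 fold change was -0.37 in WT HFD against control (standard error 0.16, adjusted p = 0.303) and 0.38 in KO Pio against control (standard error 0.16, adjusted p = 0.121), and neither was called in edgeR. For KO Pio against control 9.01% of all tested genes were called, or 1166, and 0.51%, or 66, without mouse 13. Without this mouse the Lpin3 change was 0.34 (adjusted p = 0.466).

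Dgat2 (ENSMUSG00000030747, chromosome 7, 99153658 to 99182719), the DGAT linked to newly made fatty acids, had WT averages of 569 ± 161 CPM (control), 619.6 ± 172 (Pio), 740.3 ± 286 (HFD) and 773 ± 86.8 (HFD-Pio). The ranges overlapped in all comparisons. Its log2 fold changes in WT mice lay between 0.06 with Pio on HFD and 0.38 with HFD alone, none with an unadjusted p under 0.05. In KO mice the means were 547 ± 61.9 CPM on control diet, 731 ± 556 with Pio (486 ± 106 without mouse 13), 535 ± 94.8 on HFD and 532 ± 22.6 with HFD-Pio.

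Dgat1 (ENSMUSG00000022555, chromosome 15, 76502015 to 76511953), the DGAT that also re-esterifies fatty acids taken up from outside the cell, had a lower mean with Pio on control diet (23.9 ± 4.21 and 20.6 ± 6.66 CPM) and a higher mean with Pio on HFD (19.3 ± 3.45 and 26.1 ± 3.07 CPM) in WT mice. WT control mice had 18.7, 22.1, 22.1, 27.7 and 28.7 CPM and WT Pio mice 12.2, 19.1, 19.1, 21.9 and 30.6 CPM. On HFD the mice without Pio had 14.1, 18.7, 19.5, 20.6 and 23.6 CPM and those with Pio 22.5, 24.6, 26.1, 26.8 and 30.8 CPM. The groups overlapped on control diet, while on HFD 4 of 5 mice with Pio lay above every mouse without it. The log2 fold changes were -0.21 (standard error 0.21, adjusted p = 0.661) and 0.44 (standard error 0.21, adjusted p = 0.306). The difference of these Pio effects was 0.65 (standard error 0.30, adjusted p = 0.365, edgeR) and was not called, in a comparison where 0.0773% of all tested genes were called. Limma with sample weights, the authors' choice of test, gave -0.37 (adjusted p = 0.0120), 0.46 (0.0173) and a difference of 0.83 (0.00214), in comparisons where it called 23.9%, 8.4% and 10.6% of all tested genes. Limma also called Dgat1 in WT HFD-Pio against Pio (0.36, adjusted p = 0.0101) and in WT HFD against control. In these it called 22.7% and 2.53% of all tested genes, and edgeR called Dgat1 in neither. Without KO Pio mouse 13, edgeR gave 0.45 for Pio on HFD (adjusted p = 0.0341) and a difference of 0.66 (adjusted p = 0.0464), where 11.6% and 5.16% of all tested genes were called. In KO mice, Dgat1 lay between 15.7 and 20.1 CPM in 19 mice and at 47.6 CPM in mouse 13.

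**Figure D3:**
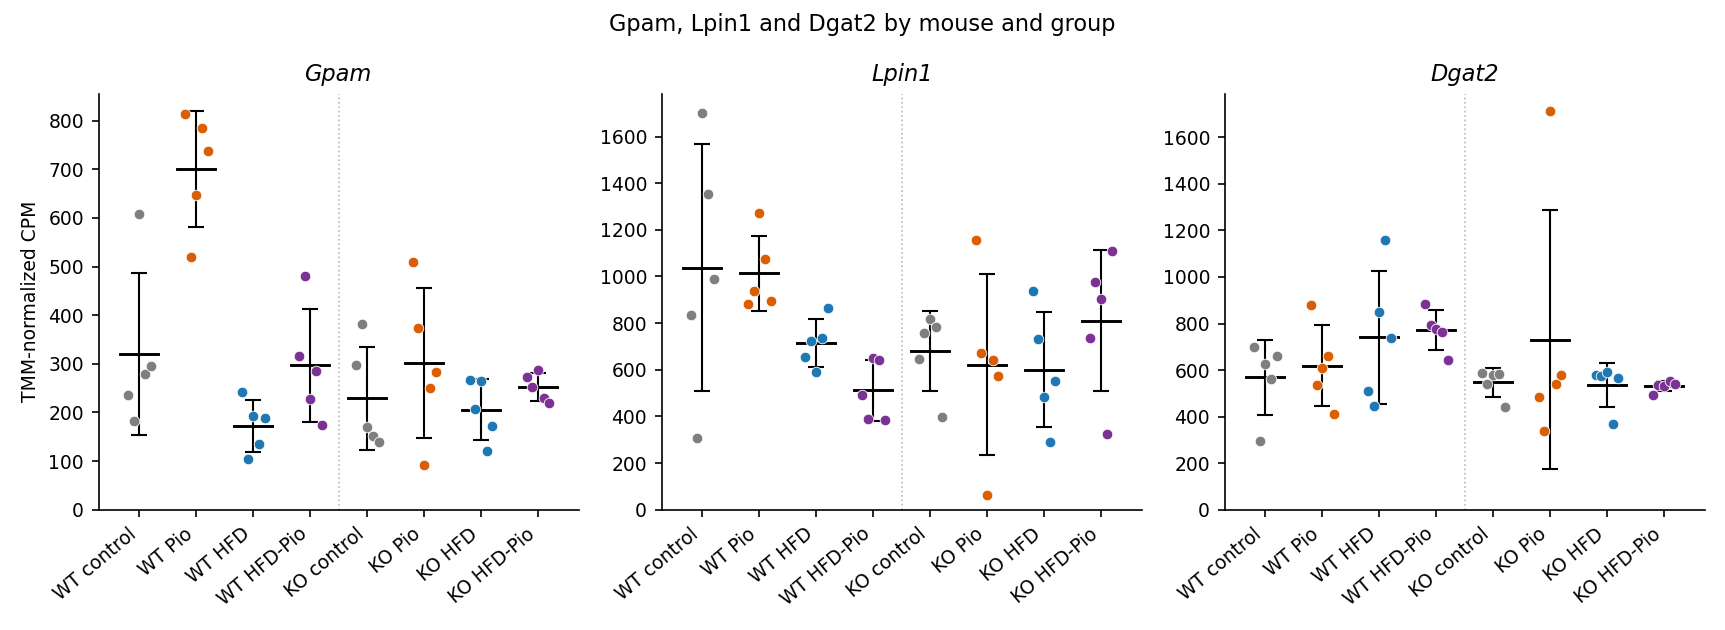
Gpam, Lpin1 and Dgat2 in CPM for each of the 40 mice, by group (5 points each, with mean and SD as bar and whiskers). WT Pio mice are highest for Gpam (519 to 813), all WT HFD-Pio mice lie below all WT Pio mice for Gpam and Lpin1, and KO Pio mouse 13 stands alone at 1712 for Dgat2 and 64.9 for Lpin1.

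Counted over the 9 tested genes, 1 (Mogat1) was called in WT Pio against control, 1 (Mogat1) in WT HFD-Pio against HFD, 0 in WT HFD against control and 0 in WT HFD-Pio against Pio, where 3.91%, 1.08%, 1.31% and 1.22% of all tested genes were called. The medians of the log2 fold change over the 9 genes were 0.03, 0.15, -0.31 and -0.05, beside -0.02, -0.02, 0.00 and -0.01 over all tested genes. In KO mice 0 were called in every comparison, where 9.01% (Pio against control), 0.0155% (HFD-Pio against HFD), 0.185% (HFD against control) and 4.96% (HFD-Pio against Pio) of all tested genes were called. Without mouse 13 these shares were 0.51%, 0%, 0.386% and 0.0927%, with 0 of the 9 genes called in each. At an unadjusted p under 0.05 the KO counts were 1, 0, 0 and 0 of 9, and DESeq2 and limma with sample weights called 0 as well. For the difference of the Pio effects between the diets, 0 of 9 were called in WT and 0 of 9 in KO mice, where 0.0773% and 0% of all tested genes were called. For the difference between genotypes 1 of 9 was called on control diet and 0 of 9 on HFD, where 7.87% and 0.0927% of all tested genes were called. At an unadjusted p under 0.05 the 0 counts correspond to 2 of 9 for WT HFD against control, 2 for WT HFD-Pio against Pio, 1 and 0 for the diet differences in WT and KO mice and 1 for the genotype difference on HFD. Of all tested genes, 13.2%, 14.2%, 12.1%, 12.1% and 5.93% had such a p. DESeq2 called 0, 1, 0, 0 and 0 of these 9 genes, and limma with sample weights 1, 4, 1, 0 and 1, where the shares of all tested genes called were 2.91%, 2.94%, 1.04%, 0% and 0.201% in DESeq2 and 2.53%, 22.7%, 10.6%, 0.402% and 2.74% in limma. Without KO Pio mouse 13 edgeR called 2 in WT Pio against control (Gpam added), 2 in WT HFD-Pio against HFD (Dgat1 added), 2 in WT HFD-Pio against Pio (Gpam and Lpin1) and 1 for the diet difference in WT mice (Dgat1), where 15.5%, 11.6%, 8.68% and 5.16% of all tested genes were called. For the KO diet difference 1562 of all tested genes had an unadjusted p under 0.05, and DESeq2 called 0 and limma with sample weights 52. Comparisons with a common group share its mice.

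**Figure D4:**
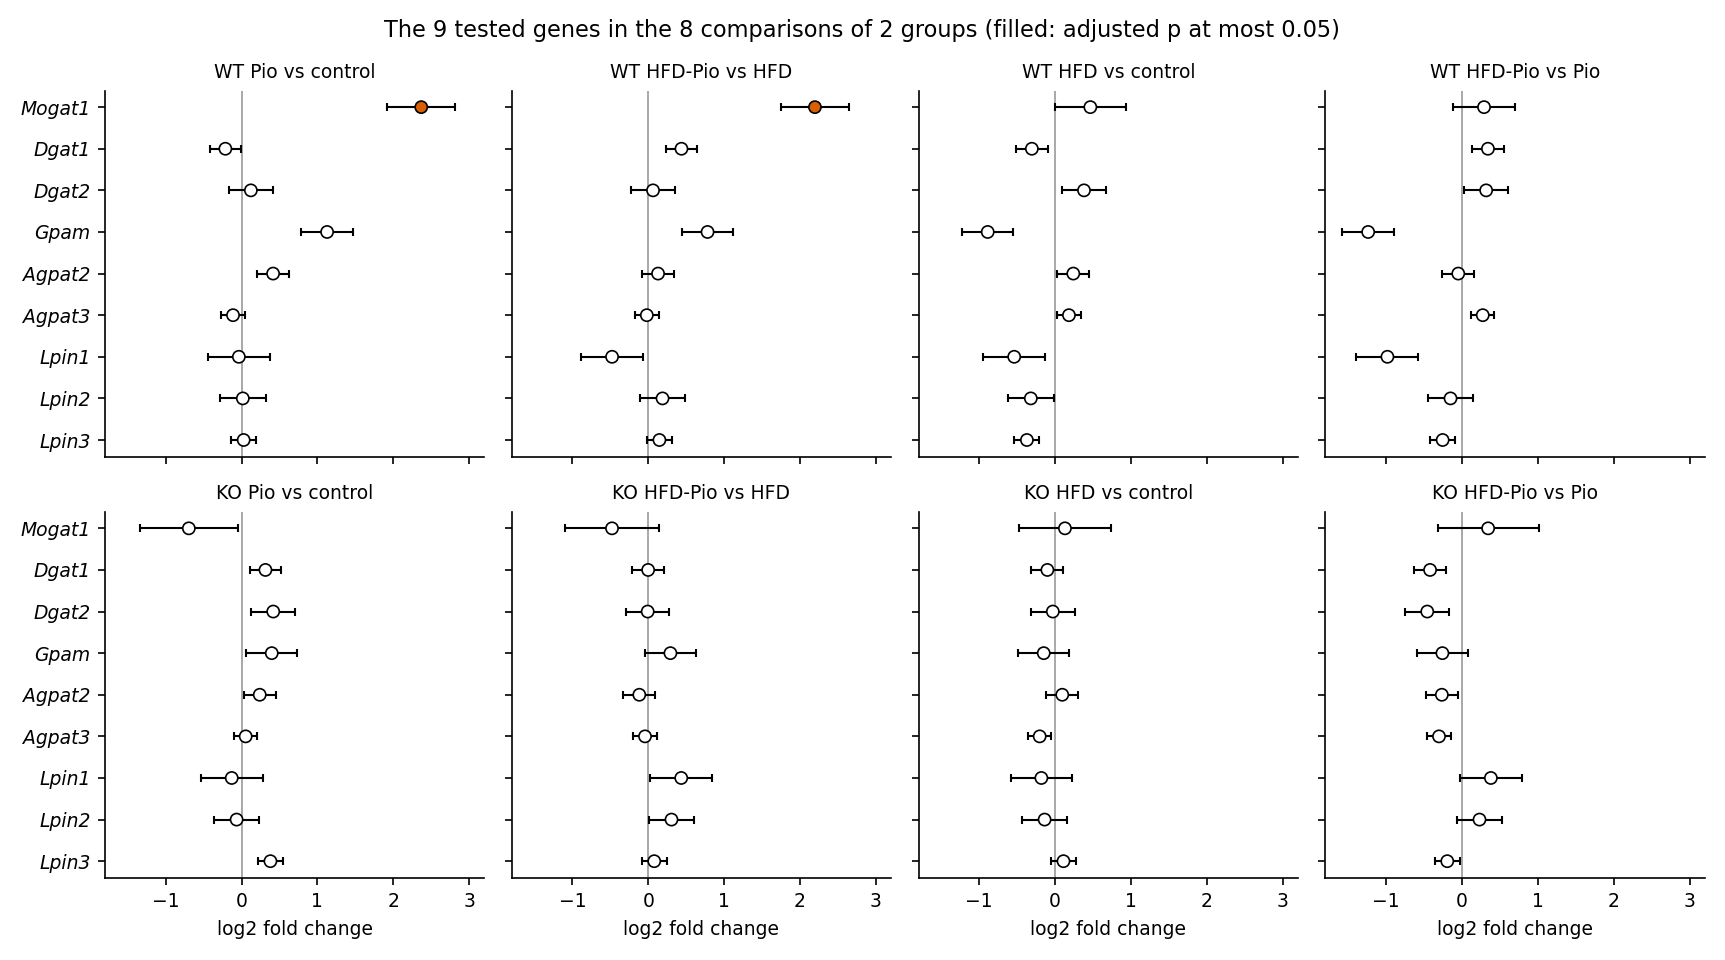
Log2 fold change with standard error (edgeR) of the 9 tested genes in the 8 comparisons of 2 groups, with filled points at an adjusted p of at most 0.05. Filled points occur only for Mogat1 in WT Pio against control (2.37) and WT HFD-Pio against HFD (2.20), and Gpam comes next in size (1.13 and -1.24).

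Of 29 further genes of the pathway, 26 were tested. They cover the supply of glycerol-3-phosphate and acyl-CoA, the other GPAT and AGPAT enzymes, lipid phosphate phosphatases, regulators of lipins, users of diacylglycerol and lipogenic regulators. In WT Pio against control 2 of 26 were called, both higher, where 3.91% of all tested genes were called. Gpd1, which makes glycerol-3-phosphate, went from 409 ± 96.4 to 803 ± 136 CPM (log2 fold change 0.97, standard error 0.19, adjusted p = 0.00195), and Chpt1, which turns diacylglycerol into phosphatidylcholine, from 93.1 ± 30.1 to 163 ± 29.0 CPM (0.81, standard error 0.23, adjusted p = 0.0391, edgeR). The call of Chpt1 was lost without any 1 of 8 mice (WT control 831 to 834 and WT Pio 841, 842, 844 and 845), with adjusted p up to 0.101 and changes of 0.66 to 0.96, and also when no filter was used. Without KO Pio mouse 13, 9 of the 26 genes were called, limma with sample weights called 10 and DESeq2 5, where the shares of all tested genes called were 15.5%, 23.9% and 6.28%.

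In WT HFD against control 3 of 26 were called, all higher, where 1.31% of all tested genes were called. Acsl1, the main acyl-CoA synthetase of liver, was at 690.4 ± 201 CPM without and 1464 ± 189.5 CPM with HFD (1.08, standard error 0.24, adjusted p = 0.0134), Gpd1 rose by 0.80 (standard error 0.19, adjusted p = 0.0218) and Chpt1 by 1.03 (standard error 0.23, adjusted p = 0.0154, edgeR). Gpd1 lost the call without WT HFD mouse 828 or 829 or WT control mouse 832 or 833 (adjusted p up to 0.0965), and Chpt1 without mouse 829, 832 or 833 (up to 0.0905). The Gpd1 call was also lost with no filter and that of Chpt1 in limma with sample weights. In WT HFD-Pio against Pio, where 1.22% of all tested genes were called, 1 of 26 was called, Cept1 (0.67, standard error 0.15, adjusted p = 0.0195, edgeR), an enzyme that makes phosphatidylcholine and phosphatidylethanolamine from diacylglycerol. It lost the call without WT HFD-Pio mouse 836 or 839 or WT Pio mouse 842, 843 or 845 (adjusted p up to 0.0891), with no filter and with WT mice fitted alone. Limma with sample weights called 14 of the 26, beside 22.7% of all tested genes. In WT HFD-Pio against HFD edgeR called 0, with 7 at an unadjusted p under 0.05, DESeq2 1, limma with sample weights 5 and edgeR without KO Pio mouse 13 called 5, where the shares of all tested genes were 1.08% in edgeR, 2.78%, 8.4% and 11.6%. An unadjusted p under 0.05 was found there for 15.6% of all tested genes. Over the 26 genes the median log2 fold change in these 4 comparisons was 0.02 (Pio), 0.04 (HFD), 0.21 (HFD-Pio against Pio) and 0.22 (HFD-Pio against HFD), beside -0.02, 0.00, -0.01 and -0.02 over all tested genes.

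In KO Pio against control, where 9.01% of all tested genes were called, 2 of 26 were called: Gpat4 was lower (-0.52, standard error 0.14, adjusted p = 0.0226) and Plpp2 higher (0.98, standard error 0.25, adjusted p = 0.0199, edgeR). Without mouse 13 these were -0.42 (adjusted p = 0.140) and 0.61 (0.220), and the calls were also lost without KO control mouse 1 or 4 (Gpat4) and without KO control mouse 1, 2 or 3 (Plpp2), with KO mice fitted alone (both) and with no filter (Gpat4). Without mouse 13, 1 other of the 26 genes was called, where 0.51% of all tested genes were. In KO HFD-Pio against Pio, where 4.96% of all tested genes were called (0.0927% without mouse 13), 2 of 26 were called, Srebf1 (-1.54, standard error 0.41, adjusted p = 0.0399) and Plpp2 (-0.82, standard error 0.25, adjusted p = 0.0480), and without mouse 13 they were -0.36 (1.00) and -0.44 (0.937). The call of Plpp2 was lost without any 1 of 29 mice, and that of Srebf1 also without any 1 KO HFD-Pio mouse. Both were lost with no filter, with limma weights and with KO mice fitted alone. Srebf1 is a regulator of lipogenic genes, and Plpp2 a lipid phosphate phosphatase. In KO HFD against control and HFD-Pio against HFD edgeR called 0 of 26 and 0 had an unadjusted p under 0.05, DESeq2 called 0 and 0, and limma with sample weights 1 and 0. Of all tested genes, edgeR called 0.185% and 0.0155% there, and 4.6% and 1.04% had an unadjusted p under 0.05. DESeq2 called 0.41% and 0.0618% of them, and limma 4.19% and 0%. The Pio effect on control diet differed between genotypes for 4 of 26 (7.87% of all tested genes), Gpd1 (-1.40, adjusted p = 0.00280), Gpat4 (-0.96, adjusted p = 0.00382), Plpp2 (1.77, adjusted p = 0.00342) and Chpt1 (-1.21, adjusted p = 0.0220, edgeR), and these 4 calls held without any 1 of the 40 mice. For the genotype difference on HFD and the diet differences in WT and KO mice, edgeR called 0 of 26 each. The shares of all tested genes were 0.0927%, 0.0773% and 0%. DESeq2 called 0, 1 and 0 of 26 there (0.201%, 1.04% and 0% of all tested genes). Limma with sample weights called 1, 1 and 0 (2.74%, 10.6% and 0.402%).

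KO Pio mouse 13 differed from the other 4 KO Pio mice in both directions. It had 1712 CPM of Dgat2 (337 to 581 in the others), 47.6 of Dgat1 (16.6 to 18.8), 336 of Agpat2 (149.8 to 214) and 513 of Agpat3 (264 to 303). It had 64.9 CPM of Lpin1 (573 to 1158), 80.6 of Lpin2 (411 to 709.8) and 92.7 of Gpam (250.3 to 509). Relative to the mean of the other 4 it was thus 3.52-fold higher in Dgat2 and 11.7-fold lower in Lpin1. Its clock genes summed to 1271 CPM (389 to 530.1 in the others) and its 4 fasting genes to 2214 CPM (3077 to 5148). With this mouse the log2 fold changes in KO Pio against control were 0.42 for Dgat2, 0.32 for Dgat1, 0.05 for Agpat3, -0.13 for Lpin1 and -0.06 for Lpin2. Without it they were -0.15, -0.087, -0.14, 0.18 and 0.23, and none was called either way. The adipocyte list summed to 42.3 CPM in it (8.30 to 14.7 in the others) and the enterocyte list to 7.22 CPM (53.5 to 69.8), and the part of these differences in the result was not tested.

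**Figure D5:**
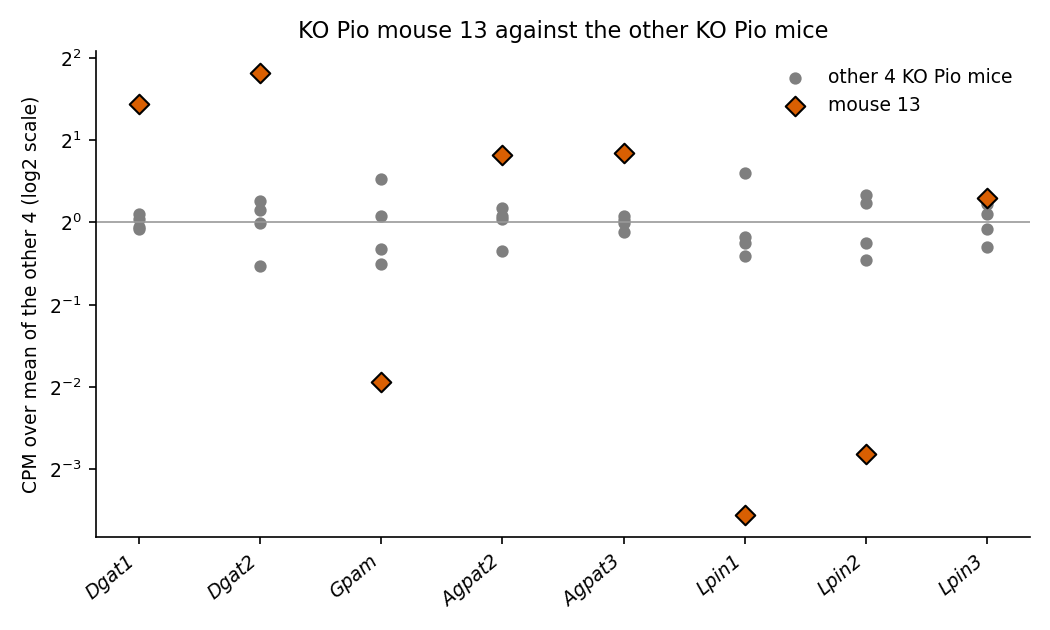
CPM of 8 genes in each KO Pio mouse, divided by the mean of the 4 KO Pio mice other than mouse 13 (log2 axis), with mouse 13 as diamonds and the other 4 as circles. Mouse 13 lies above the others for the DGAT and AGPAT genes (3.52 for Dgat2) and below them for Gpam, Lpin1 and Lpin2 (0.0852 for Lpin1).

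Within groups, some of the 10 genes varied together from mouse to mouse. After removal of the group means, the r of log2 CPM over the 20 WT mice was 0.864 for Dgat2 with Agpat3, 0.761 for Dgat2 with Agpat2 and 0.613 for Gpam with Lpin2, and Mogat1 had its lowest value with Lpin1 (-0.254). Over 19 KO mice without mouse 13 it was 0.549 for Dgat2 with Agpat3 and 0.335 for Dgat2 with Agpat2. With mouse 13 the KO value for Dgat1 with Lpin1 was -0.703, and without it 0.658. Values of the same mouse share a library, so that these are descriptions.

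Among all tested genes, those whose log2 CPM followed Mogat1 most closely over the 20 WT mice were Cd36 (r = 0.920, rho = 0.941), a fatty acid transporter, Clstn3 (r = 0.914, rho = 0.886) and Zfp423 (r = 0.907, rho = 0.904). For Gpam they were Dlat (r = 0.916, rho = 0.893), a subunit of pyruvate dehydrogenase, Ugt1a5 (r = 0.912, rho = 0.926) and Thrsp (r = 0.912, rho = 0.959), a lipogenic gene. For Lpin1 they were Fdps (r = 0.857, rho = 0.911), an enzyme of sterol synthesis, 2200002D01Rik (r = 0.842, rho = 0.871) and Hes6 (r = 0.842, rho = 0.811). After removal of group means these values of r were between 0.627 and 0.808. They describe 20 libraries in 4 groups, which share diets and drug, and the genes were picked as the highest of all tested genes.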

How the data were processed

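Poly-A RNA of each liver was sequenced. The authors mapped the reads to GRCm38 with STAR (2.0.4b), and featureCounts of Subread (1.4.5) assigned those that mapped to 1 place and to 1 gene. The deposited values are these raw counts, with WT and KO mice in separate files. The deposited files also list annotation of each gene, such as the percentage of GC and the number of transcripts, which differs between the files for Lpin1 (2 for WT, 8 for KO) and Agpat3 (11 and 13). All 40 columns matched a mouse, and 0 pairs of mice had identical counts. The p-values of edgeR set a difference between group means against a spread between mice that was estimated over all 8 groups of both genotypes.

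After removal of 355 rRNA genes, genes that reached 1 CPM in no fewer than 5 of 40 mice were tested. Counts were fitted with edgeR 4.0.16 in R 4.3.3 (TMM, robust quasi-likelihood F test, a mean for each of the 8 groups) for 12 comparisons. The scripts were tested on simulated data. Alternatives were RLE size factors, no filter, DESeq2 1.42.0, limma 3.58.1 (voom with sample quality weights), each genotype fitted alone and each mouse left out. Other software was the data.table package (1.17.8), matplotlib 3.10.9, scipy 1.17.1, numpy 2.4.6, pandas 2.3.3 and Python 3.11.15. Exon lengths and coordinates are from GENCODE M21 (GRCm38) and promoters from RefSeq (GRCm38.p6).

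The 10 genes and all lists were chosen with earlier results of these data known. All 10 genes are named. Further pathway genes are named where they were called in a comparison of 2 groups, and the 3 genes of highest r over WT mice are given for the 3 tested genes with the most calls (ties by the larger fold change).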

Additional observations from a re-analysis of the deposited data

Results flagged for a closer look

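In 11 of 80 combinations of gene and group, the highest or lowest mouse stood off from the other 4 by more than 0.71 of the group's range. This is Dixon's critical value for 5 samples, which independent, normally distributed values exceed in about 1 of 20 groups, or 4 of 80. CPM need not be normal and the same mice recur over the genes, so this number is only a rough guide. KO Pio mouse 13 accounted for 3 of the 11 combinations, with 47.6 CPM of Dgat1 (16.6 to 18.8 in the other 4 mice), 1712 CPM of Dgat2 (337 to 581) and 513 CPM of Agpat3 (264 to 303). KO HFD mouse 9 accounted for another 3 and was low in each, with 366 CPM of Dgat2 (564 to 589.8), 216 CPM of Agpat3 (291 to 294) and 186 CPM of Lpin2 (445 to 550.3). WT HFD mouse 829 was high in Mogat1 at 2.28 CPM (0.611 to 0.900 in the others) and low in Lpin2 at 255 CPM (364 to 404). WT control mouse 833 had 609 CPM of Gpam (183 to 296). For Lpin2, WT HFD-Pio mouse 840 was low at 347 CPM (402 to 422), as was KO control mouse 3 at 368 CPM (498 to 546).

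The effect of Pio on Mogat1 on control diet differed between KO and WT mice by -3.06 on the log2 scale in the interaction test of edgeR (adjusted p = 0.0174). In this comparison 7.87% of all tested genes were called. Without KO control mouse 2 the call was lost (-2.62, adjusted p = 0.0569), and no KO library had more than 11 Mogat1 counts.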

How the results depend on the processing

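The number of the 9 tested genes called in WT Pio against control was 1, and 2 with RLE size factors, DESeq2 or each genotype alone (adding Gpam), 3 with limma weights (adding Gpam and Dgat1) and 1 to 2 without any 1 mouse. In WT HFD-Pio against HFD it was 1, 2 with limma weights, and 1 to 2 without any 1 mouse. In WT HFD-Pio against Pio it was 0, 1 in DESeq2 and with each genotype alone, 4 with limma weights, and 0 to 2 without any 1 mouse. In WT HFD against control it was 0, and 1 with limma weights. For the diet difference in WT mice it was 0, 1 with limma weights and 0 to 1 without any 1 mouse. For the genotype difference it was 1 on control diet (0 to 1 without any 1 mouse), and 0 on HFD (1 with limma weights). In the KO comparisons it was 0 under every alternative. Limma weights called 23.9% of all tested genes in WT Pio against control, 8.4% in WT HFD-Pio against HFD and 22.7% in WT HFD-Pio against Pio. DESeq2 called 6.28%, 2.78% and 2.94% there. The shares with RLE size factors and with each genotype alone are not given here. The added calls under these settings therefore cannot be set beside those of all tested genes. Of 38 log2 fold changes followed, 1706 values under alternatives held 1653 with the same direction and call, 33 newly called, 1 that lost its call and 19 of opposite sign. None of those that turned was called. The 38 did not cover every gene in every comparison. Calls by limma weights of Agpat3 in WT HFD-Pio against Pio and of Dgat1 in WT HFD against control lay outside them. In KO Pio against control, limma weights and leaving out single mice gave -0.086 and -0.14 to 0.13 for Agpat3, 0.043 and -0.47 to 0.18 for Lpin1, -0.097 and -0.087 to 0.42 for Dgat1, 0.082 and -0.26 to 0.23 for Lpin2, and -0.10 and -0.15 to 0.60 for Dgat2. In KO HFD-Pio against Pio, Dgat2 (-0.46) was 0.037 and -0.64 to 0.13, and Mogat1 (0.34) was -0.24 with limma weights. The KO diet difference of Dgat2 (-0.43) was 0.0038 and -0.61 to 0.14. Without any 1 mouse, Mogat1 ranged from -0.043 to 0.93 in WT HFD against control and from -0.12 to 0.57 in KO HFD against control. Gpam in WT Pio against control ranged from 1.00 to 1.50 and was called in 10 of the 40 fits, and in WT HFD-Pio against Pio from -1.48 to -1.09, called in 7. Causes were not tested.

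No paired analysis was possible because each mouse has its own number and the groups share none. Mogat1 in KO mice and Mogat2 in all mice rested on few counts.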
